A study of Mus musculus with 22 samples.

Results

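Oct4 ChIP-seq peaks were examined around 60 genes of the PDGF, FGF, TGF-beta, BMP, Wnt and Notch pathways in aortas of mice whose smooth muscle cells (SMC) kept or lost Oct4. The 60 genes are ligands, receptors and signal transducers of these pathways, listed by name with earlier results of these data known, and all 60 were found among the 22028 protein-coding genes of GENCODE M21 on the GRCm38 mouse genome. A peak was assigned to a gene when its summit, the base with most fragments, lay in the gene body or within 50 kb of it. Of the 60 genes, 21 had a peak in SMC Oct4-WT/WT mice and 25 in SMC Oct4-KO/KO mice, and 33 had none in either.

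Oct4, encoded by Pou5f1, is a pluripotency transcription factor, and the ChIP-seq mapped where an Oct4-specific antibody enriched chromatin. Each genotype was represented by 1 ChIP sample, made from aortic segments (the arch with the root, up to the carotid bifurcation) of 15 mice kept on Western diet over 18 weeks. Both groups were apoE-/- males on a C57BL/6 background that carried the tamoxifen-inducible Myh11-CreERT2 transgene, which sits on the Y chromosome, and received tamoxifen. They differed in the Oct4 alleles, which stayed intact in SMC Oct4-WT/WT mice and were deleted from SMC after tamoxifen in SMC Oct4-KO/KO mice (also written SMC Oct4-Δ/Δ). Only cells that express Myh11 when tamoxifen is given recombine, and cells derived from them keep the deletion. Endothelial cells, macrophages and other cells of the knockout aortas that did not derive from SMC still carried Oct4. With 1 sample per genotype there was no replicate and no test. Each interval given for a fragment count or a share covers counting error only, and no difference between genotypes was set against the spread between samples.

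PDGF and FGF signal through receptor tyrosine kinases and drive division and migration of SMC. TGF-beta and BMP ligands bind serine/threonine kinase receptors that phosphorylate SMAD proteins, which then act on chromatin. In the artery, TGF-beta is known for inducing SMC contractile genes and matrix, and BMP for holding back SMC growth. Wnt ligands bind Frizzled receptors with the coreceptors Lrp5 and Lrp6 and act through beta-catenin and TCF/LEF factors. Notch receptors are cleaved on contact with Jagged or Delta ligands of a neighbouring cell and act through Rbpj, and Notch3 is the main Notch receptor of arterial SMC.

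The genomic sequences under 5 of the peaks are printed first. All are from the RefSeq copy of GRCm38, plus strand, 5′ to 3′, over the called peak. The peaks near Tgfbr3 at chr5:107311880-107311928 and near Bmpr1b at chr3:142191796-142191851 are the strongest wild-type peaks at the TGF-beta and BMP genes among the 60, and were called in both genotypes (wild-type interval shown). The peaks in Fgf14 at chr14:124668378-124668425 (wild-type only) and in Notch3 at chr17:32161153-32161195 (knockout only) had their summits within 10 kb of a transcription start of the gene. The peak near Pdgfb at chr15:80032033-80032073 is the one wild-type peak of the PDGF genes. Capitals in the Fgf14 and Pdgfb sequences mark the longest run that the pair shares.
Tgfbr3: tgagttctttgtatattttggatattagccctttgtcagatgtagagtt
Bmpr1b: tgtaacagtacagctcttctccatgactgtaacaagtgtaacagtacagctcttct
Fgf14: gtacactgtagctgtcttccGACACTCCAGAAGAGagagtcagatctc
Pdgfb: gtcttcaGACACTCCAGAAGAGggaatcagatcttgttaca
Notch3: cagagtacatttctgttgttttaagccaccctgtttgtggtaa

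Across the 60 genes, 21 (35.0%) had at least one wild-type peak, against 18.8% of all protein-coding genes. In the knockout, 25 (41.7%) had one, against 30.5% of all protein-coding genes. The member genes are long, with a median body of 61.9 kb against 17.3 kb over all protein-coding genes, and a longer window takes in more peaks by its size alone. If the peaks of each chromosome were spread evenly along it, the 60 windows would hold a peak at 14.9 genes (24.9%) in wild-type and 21 (35.0%) in the knockout. Both observed counts were above these, for a list that was made with earlier results known, and the same even spread gives 21.2% of all protein-coding genes in wild-type and 29.3% in the knockout. In peaks, the windows held 30 in wild-type against 20.4 for an even spread, and 42 in the knockout against 32.7.

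The genes fell into 4 classes. Peaks of both genotypes were found at 19 genes (31.7%), against 16.5% of all protein-coding genes, and 33 genes (55.0%) had none, against 67.1%. Pdgfb and Notch4 had a wild-type peak only, which is 3.33% of the 60, against 2.33% of all protein-coding genes. Bmp4, Bmpr2, Smad9, Notch3, Pdgfra and Wnt4 had a knockout peak only, which is 10.0% of the 60, against 14.0% of all protein-coding genes. The class of some genes depended on the settings. Pdgfra and Smad9 also had 1 wild-type peak each with a 100 kb window, as did Pdgfra by nearest start. Pdgfb and Bmpr2 lost their peak when the peaks were limited to a median of 1 copy, and Notch4 lost its peak by nearest start. Bmp4, Bmpr2, Wnt4, Notch4 and Pdgfb had none in the gene body itself. Among the genes with peaks of both genotypes, Tgfbr3 had a knockout peak only at 10 kb, with the gene body alone and by nearest start. The same held for Bmp6 with peaks of a median of 1 copy, and for Fgfr2 with RefSeq gene bodies. Acvr1 had no peak left at a median of 1 copy, and Acvr1, Fgfr1, Notch2 and Smad3 had none by nearest start. Genes with a wild-type peak had a median body of 102 kb and genes with no peak one of 39.9 kb.

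**Figure D1:**
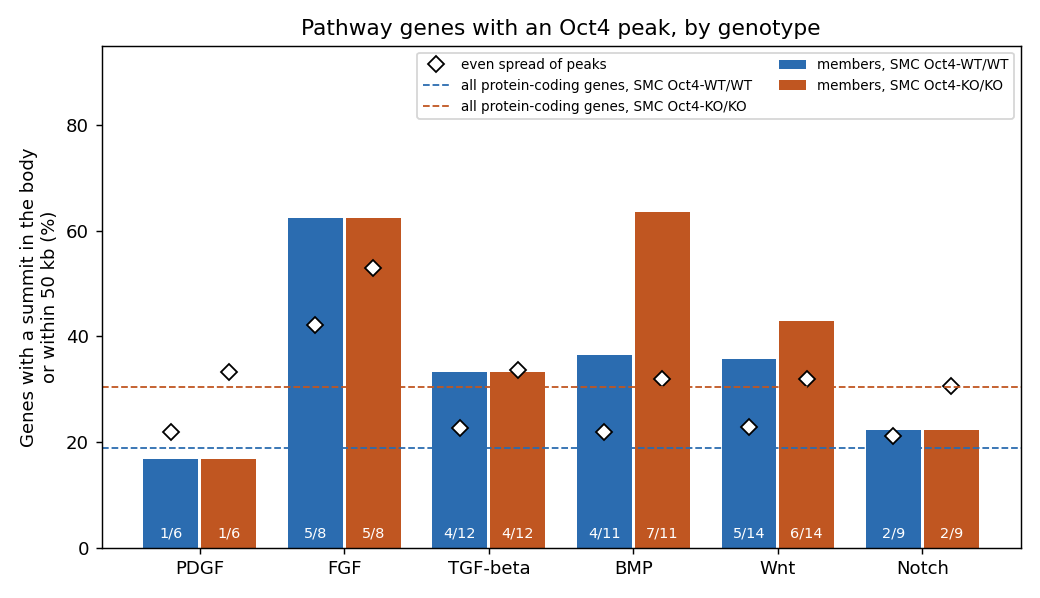
Share of genes of each pathway with an Oct4 ChIP-seq summit in the body or within 50 kb, in percent, for SMC Oct4-WT/WT (blue bars) and SMC Oct4-KO/KO (orange bars), with the number of genes printed in the bars. Diamonds give the share for peaks spread evenly along each chromosome and dashed lines the share of all protein-coding genes, 18.8% and 30.5%. FGF had the highest wild-type share (5 of 8 genes) and BMP the highest knockout share (7 of 11), and PDGF lay below the diamonds in both genotypes.

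By pathway, FGF had 5 of 8 genes with a peak in each genotype, against 3.37 for an even spread in wild-type and 4.23 in the knockout. TGF-beta had 4 of 12 in each, against 2.71 and 4.03. Wnt had 5 of 14 in wild-type and 6 in the knockout, against 3.21 and 4.47. Notch had 2 of 9 in each, against 1.91 and 2.76, and PDGF 1 of 6 in each, against 1.31 and 2.0. BMP had 4 of 11 genes in wild-type and 7 in the knockout, against 2.41 and 3.51. In the knockout PDGF, TGF-beta and Notch were thus at or below an even spread. With the 50 kb window, BMP was the pathway whose count differed most between genotypes. With the gene body alone BMP had 2 and 3 of its 11 member genes, and the difference of 1 was equal to that of PDGF, TGF-beta and Notch.

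By role, receptors had a peak at 10 of 22 genes in wild-type (45.5%, even spread 6.13 genes) and 12 in the knockout (54.5%, even spread 8.46), with the long Fgfr2 body among them. Extracellular ligands had one at 5 of 22 (22.7%, even spread 4.11) and 6 of 22 (27.3%, even spread 6.04), near the 18.8% and 30.5% of all protein-coding genes. SMAD genes had one at 3 of 8 (even spread 1.63) and 4 of 8 (2.36). Of the 5 downstream factors Ctnnb1, Lef1, Rbpj, Tcf7l1 and Tcf7l2, Tcf7l1 had peaks.

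The height of each peak is given below as fragments at the summit, worked out from the deposited fold enrichment, beside that fold. Fold is the ratio of the summit fragments plus 1 to the number expected plus 1, and the expected number was 0.458 in wild-type and 0.462 in the knockout. The lowest summit that was called had 5 fragments in both genotypes, and neither list holds a site with fewer. Member peaks had a median fold of 8.91 (range 5.49 to 20.6) in wild-type and 8.55 (6.16 to 22.6) in the knockout. Over all peaks the medians were 7.54 and 7.52. Peaks of wild-type and knockout that overlapped by at least 1 bp were counted as 1 site, which gave 46 sites at the 27 genes with a peak: 26 called in both genotypes, 4 in wild-type only and 16 in the knockout only.

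**Figure D2:**
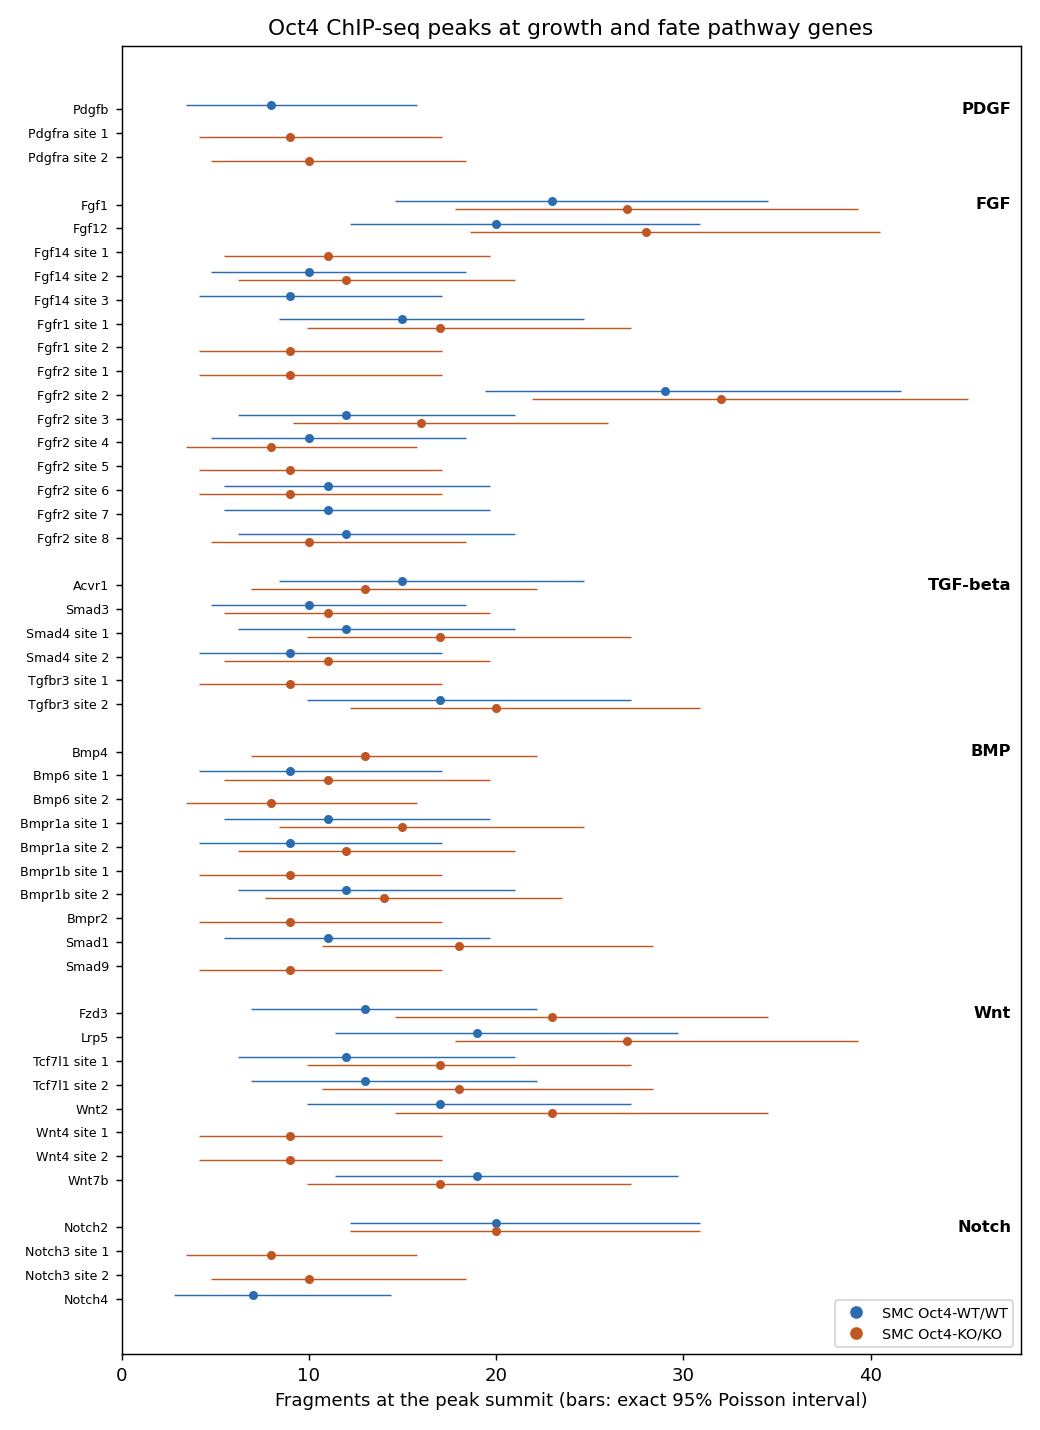
Fragments at the summit of every site at the 60 genes, grouped by pathway, for SMC Oct4-WT/WT (blue) and SMC Oct4-KO/KO (orange). Points are counts, bars exact 95% Poisson intervals, sites of a gene are numbered along the chromosome, and a missing point means that no peak was called in that genotype. The intervals overlap at all 26 sites called in both genotypes, and the sites called in 1 genotype lie between 7 and 13 fragments.

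At the PDGF genes no site was called in both genotypes. Pdgfb, the PDGF-BB ligand gene, had a wild-type peak of 8 fragments (95% Poisson interval 3.45 to 15.8, fold 6.17, −log10 q 4.87), in an intron of Gm41361, 17.3 kb from a Pdgfb start. It carries a sequence that is repeated in the genome, as the median 31-base word around its summit occurred 148 times. Pdgfra, the PDGF receptor alpha gene, had 2 knockout peaks. The intron peak had 10 fragments (4.8 to 18.4, fold 7.52, −log10 q 7.5), 23.1 kb from the Pdgfra start. The upstream peak had 9 fragments (4.12 to 17.1, fold 6.84, −log10 q 6.18), 32.7 kb from it. All 3 counts were low, and their intervals overlap. Pdgfa, Pdgfc and Pdgfd, the other ligand genes, and Pdgfrb, the main PDGF receptor of SMC, had no peak in either genotype.

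The strongest member peak of each genotype was at an FGF gene. A site in the GENCODE body of Fgfr2, an FGF receptor gene, was the highest of all 46 in both genotypes, with 29 fragments in wild-type (19.4 to 41.6, fold 20.6, −log10 q 38.3) and 32 in the knockout (21.9 to 45.2, fold 22.6, −log10 q 43.8). It lay 96.6 kb from the annotated Fgfr2 start in DNA that was wholly masked as repeat, with a median of 5 copies per 31-base word, and was outside the Fgfr2 window when RefSeq gene bodies were used. At Fgf12, which codes for an intracellular FGF that binds sodium channels and is not secreted, an intron site 4.54 kb from a start had 20 fragments in wild-type (fold 14.4, −log10 q 22.7) and 28 in the knockout (fold 19.8, −log10 q 36.5). Fgf1, a secreted FGF, had 23 fragments in wild-type (fold 16.5) and 27 in the knockout (fold 19.2), in an intron of Arhgap26, 49.1 kb beyond the gene body. These 3 sites were the highest of the FGF genes in both genotypes, and each had overlapping intervals. Outside the FGF genes, Lrp5 equalled Fgf1 with 27 fragments in the knockout, and Notch2 equalled Fgf12 with 20 in wild-type.

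Fgf14, the other intracellular FGF gene, had a shared intron site of 10 and 12 fragments in wild-type and knockout, a wild-type site of 9 fragments 8.73 kb from a start (4.12 to 17.1, fold 6.86, −log10 q 6.16) and a knockout site of 11 fragments 169 kb from one. The wild-type site near the start lay in DNA with a median of 18 copies. Its sequence and that of the Pdgfb peak share a run of 15 bases, in capitals above. Fgfr1, another receptor gene, had a shared site of 15 and 17 fragments and a knockout site of 9, both beyond its body at Letm2, whose start was nearer. Fgf2 and Fgf10, secreted ligands, and Fgfr3, a receptor, had no peak.

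All but 1 of the peaks of Fgfr2, the strongest included, rest on the GENCODE annotation. GENCODE M21 gives Fgfr2 a body of 2960 kb, and RefSeq one of 104 kb. Of the 6 wild-type and 7 knockout peaks in the GENCODE window, 0 and 1 lay in the RefSeq body or within 50 kb of it. The 7 sites other than the strongest had 8 to 16 fragments. One of them, the knockout site of 9 fragments 45.0 kb from the start, was the one within the RefSeq window. The rest lay nearest to the starts of Tacc2, Plekha1, 5430419D17Rik, Gpr26, Cpxm2 and Ctbp2. Of the 5 member sites with fewer fragments in the knockout than in wild-type 3 were among these, with 10 and 8, 11 and 9, and 12 and 10 fragments.

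At the TGF-beta genes all 5 wild-type peaks had a knockout partner, against 67.9% of all wild-type peaks. The same held for the 5 at the BMP genes and the 6 at the Wnt genes. Tgfbr3, which codes for the coreceptor betaglycan, had the highest, 22.3 kb upstream, with 17 fragments in wild-type (9.9 to 27.2, fold 12.3, −log10 q 17.9) and 20 in the knockout (12.2 to 30.9, fold 14.4, −log10 q 22.7). A second Tgfbr3 site, in an intron, was called in the knockout with 9 fragments. Acvr1, a type I receptor gene for activins and BMPs, had an intron site in a tandem run of agcac units with 15 fragments in wild-type and 13 in the knockout, at a median of 17 copies. The Acvr1 site was thus lower in the knockout, within the intervals.

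Smad3, a receptor-activated SMAD of this pathway, had 10 and 11 fragments at a site in Iqch, 44.7 kb beyond its body and 0.338 kb from an Iqch start. Smad4, the common partner of all receptor-activated SMADs, had 2 upstream sites. The nearer, 2.64 kb from its start on chromosome 18, from 73706391 to 73706444 in wild-type, had 12 fragments in wild-type (6.2 to 21, fold 8.91, −log10 q 10.3) and 17 in the knockout (9.9 to 27.2, fold 12.3, −log10 q 17.8). The farther, at 15.0 kb, had 9 and 11. The nearer site was the wild-type member peak closest to the gene's own start. Of the type I and II receptors Tgfbr1, Tgfbr2 and Acvr2a, the ligands Tgfb1, Tgfb2 and Tgfb3, Smad2 and the inhibitory Smad7, none had a peak.

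The BMP genes had 5 wild-type peaks, each with a knockout partner, and 5 further peaks in the knockout. Smad1, a BMP-activated SMAD, had 11 fragments in wild-type (5.49 to 19.7, fold 8.23, −log10 q 8.86) and 18 in the knockout (10.7 to 28.4, fold 13.0, −log10 q 19.4), 17.8 kb upstream. Bmpr1a, a type I receptor gene, had 11 and 15 fragments at an intron site 9.95 kb from a start (fold 8.23 and 10.9, −log10 q 8.86 and 14.7) and 9 and 12 at a site in the neighbouring 9230112D13Rik. Bmpr1b, the other type I receptor gene, had 12 fragments in wild-type (6.2 to 21, fold 8.91, −log10 q 10.3) and 14 in the knockout (7.65 to 23.5, fold 10.3, −log10 q 13.2). All of these were higher in the knockout, with intervals that overlap.

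Bmp6, a BMP ligand gene, had 9 and 11 fragments at a run of A and T bases in an intron. A second Bmp6 intron site, 2.27 kb from the start, was called in the knockout with 8 fragments (3.45 to 15.8, fold 6.16, −log10 q 4.91). This was the member peak closest to its gene's own start in the knockout. Bmpr1b had a second knockout site of 9 fragments beside its shared site, and its 39 bases occur without a change inside the shared site's sequence, so the pair is a local repeat.

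For 3 BMP genes there was a knockout peak only. Bmp4, a ligand gene, had 13 fragments (6.92 to 22.2, fold 9.58, −log10 q 11.7) at chr14:46403300-46403347, 12.7 kb upstream. Bmpr2, the type II receptor gene mutated in heritable pulmonary arterial hypertension, had 9 (4.12 to 17.1, fold 6.84, −log10 q 6.18), 8.93 kb upstream. Smad9, a BMP-activated SMAD, had 9 (fold 6.84, −log10 q 6.18) in an intron at chr3:54775346-54775390. The Bmp4 peak was the highest of the 16 sites called in the knockout only, and its interval overlaps those of the other 2 genes. The ligand genes Bmp2 and Bmp7, the BMP-activated Smad5 and the inhibitory Smad6 had no peak.

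At the Wnt genes Lrp5, a Wnt coreceptor gene, had an intron site 4.48 kb from its start with 19 fragments in wild-type (11.4 to 29.7, fold 13.7, −log10 q 21.1) and 27 in the knockout (17.8 to 39.3, fold 19.2, −log10 q 34.7). Wnt7b, a ligand gene, had 19 in wild-type (fold 13.7, −log10 q 21.1) and 17 in the knockout (fold 12.3) in an intron. Wnt2, another ligand gene, had 17 and 23 fragments at a site 31.8 kb beyond its body. Lrp5 was thus the highest Wnt site in the knockout and shared that place with Wnt7b in wild-type.

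Fzd3, a Frizzled receptor gene, had 13 fragments in wild-type (6.92 to 22.2) and 23 in the knockout (14.6 to 34.5) in an intron 15.7 kb from its start. That ratio of 1.77 was the highest of the 26 shared sites, and its intervals overlap. Tcf7l1, a TCF factor that represses Wnt targets, had 12 and 17 fragments at a site in Retsat and 13 and 18 at a site 46.8 kb upstream. Wnt4, a ligand gene, had 2 knockout peaks of 9 fragments each (fold 6.84, −log10 q 6.18), at chr4:137260724-137260763 and, 0.319 kb beyond the gene end, at chr4:137300028-137300066. Wnt5a, Fzd1, Fzd4, Lrp6, Ctnnb1 (beta-catenin), Lef1, Tcf7l2 and the feedback gene Axin2 had no peak.

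Notch2 had the one Notch site called in both genotypes, an intron site 99.3 kb from its start with 20 fragments in each (12.2 to 30.9, fold 14.4, −log10 q 22.7). This was the one shared member site with equal counts. Notch3 had 2 knockout peaks in introns, of 10 fragments 5.69 kb from its start (4.8 to 18.4, fold 7.52, −log10 q 7.5) and of 8 fragments at chr17:32155713-32155751, 11.1 kb from it (fold 6.16, −log10 q 4.91). Notch4, a receptor gene of endothelium, had a wild-type peak of 7 fragments (2.81 to 14.4, fold 5.49, −log10 q 3.65) at chr17:34603730-34603775. That peak was the lowest of all member peaks. It lay 15.3 kb beyond the Notch4 body and 0.068 kb from the start of Rnf5. The receptor gene Notch1, the ligand genes Jag1, Jag2, Dll1 and Dll4, and Rbpj had no peak.

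The 33 genes without a peak had their nearest wild-type summit at 56.7 to 1840 kb from the body (median 310 kb) and their nearest knockout summit at 56.7 to 948 kb (median 256 kb). Just outside the 50 kb limit were Fzd1 at 56.7 kb, Axin2 at 61.1 kb and, in wild-type, Smad7 at 65.3 kb. Just inside it were the sites of Fgf1 at 49.1 kb, Tcf7l1 at 46.8 kb and Smad3 at 44.7 kb.

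Of the 30 wild-type member peaks, 26 (86.7%, exact binomial 95% interval 69.3 to 96.2) overlapped a knockout peak, against 67.9% of all wild-type peaks. Of the 42 knockout member peaks, 26 (61.9%, 45.6 to 76.4) overlapped a wild-type peak, against 49.8% of all knockout peaks. No member peak lay in a dense 1 Mb bin, meaning one with at least 20 peaks. Of the whole lists, peaks off the chromosomes included, 40.7% of wild-type and 28.9% of knockout peaks did. Over the peaks outside such bins, 76.7% of wild-type peaks and 46.7% of knockout peaks overlapped a peak of the other genotype. Both values lie inside the intervals of the members. The sites called in 1 genotype were low, with folds of 5.49 to 8.23 (median 6.52) for the 4 in wild-type and 6.16 to 9.58 (median 6.84) for the 16 in the knockout. Over all peaks, those without a partner had medians of 6.17 and 6.84.

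At the 26 shared sites the knockout had more fragments at 20 (76.9%), an equal number at 1 and fewer at 5, against 60.8% with more among all shared peaks. The median ratio of knockout to wild-type was 1.21, ranging from 0.8 at a Fgfr2 site to 1.77 at Fzd3, against 1.12 over all shared peaks. Both values over all shared peaks include peaks in dense bins, where no member peak lay. No interval was worked out for the members' share or ratio. Without Fgfr2, 18 of 21 sites were higher in the knockout and the median ratio was 1.22. No site's 2 intervals failed to overlap. The knockout library was estimated to be 1.06 times as deep, from the expected fragments and the narrowest peak of each list (41 bp in wild-type and 39 bp in the knockout). The summits of the 2 genotypes were at most 14 bp apart, and at most 10 bp apart at 24 of the 26 sites. Shared sites are by definition those still called in the knockout, and the 4 sites called in wild-type only (7 to 11 fragments) have no knockout count in the deposited lists, so they could not be compared in this way. What part the cells that kept Oct4 had in these peaks was not tested.

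**Figure D3:**
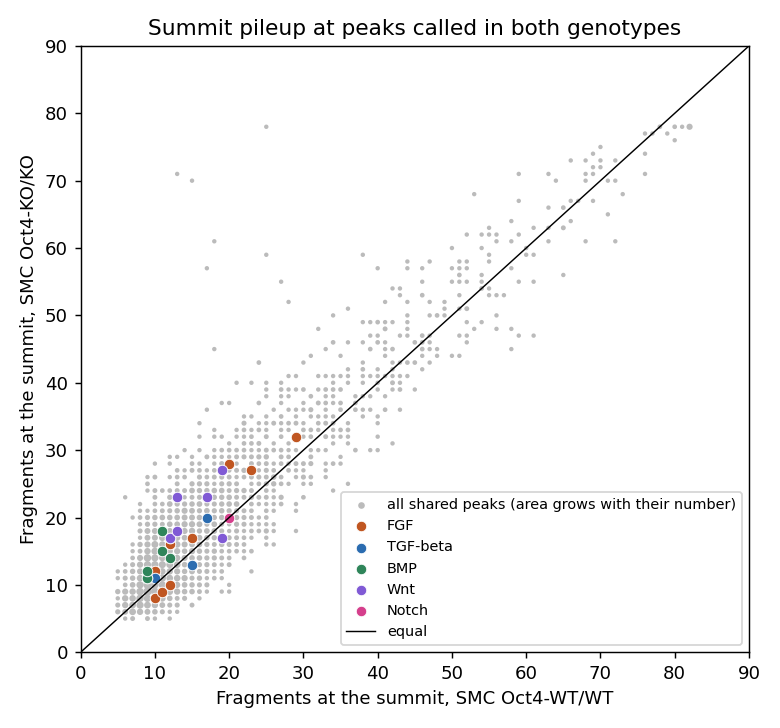
Fragments at the summit in SMC Oct4-WT/WT (x axis) and SMC Oct4-KO/KO (y axis) for peaks called in both genotypes. Grey points are all shared peaks, coloured points the 26 sites of the pathway genes, and the line marks equal counts. Of the 26 sites 20 lie above the line, 1 on it (Notch2) and 5 below it (Acvr1, Wnt7b and 3 sites of Fgfr2).

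The positions of the member peaks were compared with the gene models. Of the wild-type peaks, 15 lay in the gene body, 9 upstream and 6 downstream, and 21 of the 30 were in introns of some gene, 8 were intergenic and 1 was in the UTR of Letm2. The median distance to a start of the member gene was 37.7 kb in wild-type and 22.8 kb in the knockout. Within 10 kb of an own start were 5 wild-type peaks (Smad4, Lrp5, Fgf12, Fgf14 and Bmpr1a) and 7 knockout peaks (Bmp6, Smad4, Lrp5, Fgf12, Notch3, Bmpr2 and Bmpr1a). The closest were at 2639 bp and 2269 bp. For 17 of 30 wild-type and 29 of 42 knockout peaks, the nearest coding start was that of the member itself. With the window cut to 10 kb (bodies included), 11 of the 60 members had a wild-type peak, against 8.6% of protein-coding genes. In the knockout 17 of the 60 had one, against 14.2%. With the gene body alone, 10 of the 60 had a wild-type peak, against 5.44% of protein-coding genes. In the knockout 14 of the 60 had one, against 9.2%. With the window widened to 100 kb, 30 of the 60 had a wild-type peak, against 29.7% of protein-coding genes. In the knockout 33 of the 60 had one, against 45.6%. The share of the members was above that of all protein-coding genes in each of these settings. These comparisons make no allowance for the longer bodies of the members.

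**Figure D4:**
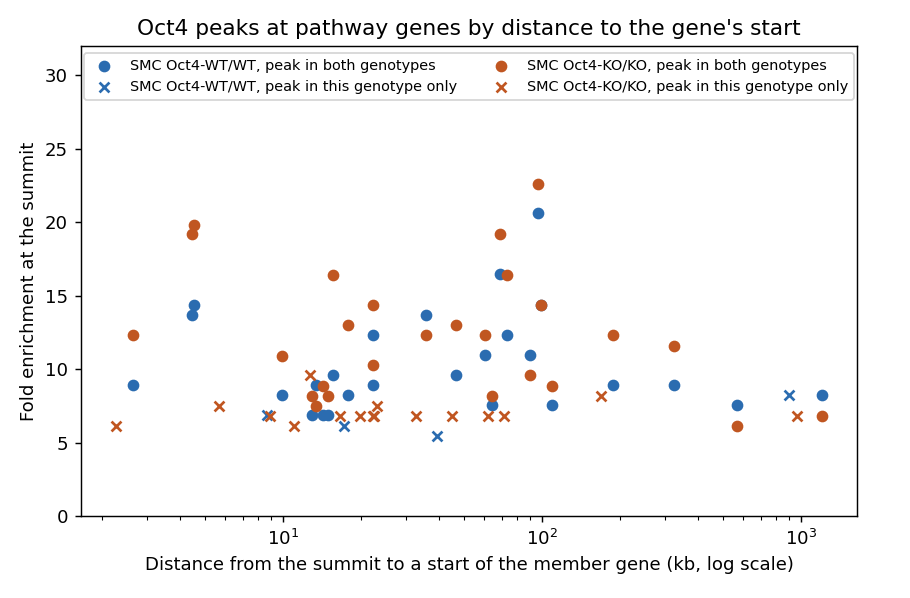
Fold enrichment at the summit (y axis) against the distance from the summit to the nearest start of the member gene in kb (x axis, log scale) for each member peak in SMC Oct4-WT/WT (blue) and SMC Oct4-KO/KO (orange). Dots are peaks called in both genotypes and crosses peaks called in 1. No summit lies closer than 2269 bp, the crosses stay at a fold of 9.58 or lower, and the highest peaks, in the GENCODE body of Fgfr2, lie 96.6 kb from the start.

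The sequences under the member peaks were set against all peaks and against the genome. The octamer ATGCAAAT, which POU factors such as Oct4 bind, searched on both strands within 100 bp of the summit, was found at 0 of 30 wild-type peaks (exact binomial interval 0 to 11.6%) and at 1 of 42 knockout peaks, the Pdgfra intron peak. It was found at 2.05% of all wild-type peaks, at 2.59% of all knockout peaks and in 1.74% of all 201 bp tiles of the genome. CATTGT, the core that SOX factors bind, was found at 2 of 30 (6.67%) and 3 of 42 (7.14%) member peaks. These were sites of Fgfr2 and Wnt4, and CATTGT was found at 13.2% of all wild-type peaks, 12.8% of all knockout peaks and 12.7% of tiles. At these numbers a share like that of the tiles lies within the intervals of both motifs.

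A 9-letter run was more common. GAGGCTGAG, as spelled in the consensus of the primate Alu repeat, was found within 100 bp of 7 of 30 wild-type summits (23.3%, interval 9.93 to 42.3), at Bmpr1a (both sites), Lrp5, Smad1, Smad3, Smad4 and Tcf7l1. In the knockout it was found at 8 of 42 (19%, 8.6 to 34.1), at the same sites and upstream of Pdgfra. It was found at 5.32% of all wild-type and 7.02% of all knockout peaks and in 0.517% of tiles. GAGGCAGAG, the spelling of the mouse B1 repeat, was found at 0 of 30 and 2 of 42 (Fgfr1 and Notch3), at 6.93% and 8.88% of all peaks and in 1.88% of tiles. Both runs were chosen after the sequences were seen, so their shares are a description. What the runs contribute to the peaks was not tested.

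Soft-masked repeat letters made up a mean of 76.4% of the bases of wild-type member peaks, against 70.7% over all wild-type peaks, and 76.2% against 71.9% in the knockout. Of the peaks, 13 of 30 and 17 of 42 were wholly masked. The words around most summits were still unique: the median 31-base word occurred once in the genome at 24 of 30 (80.0%) wild-type and 37 of 42 (88.1%) knockout member peaks, against 50.8% and 63.1% of all peaks. Pdgfb, the wild-type Fgf14 site, Acvr1, Bmpr2 and the strongest Fgfr2 site were among the exceptions. The values over all peaks include peaks in dense bins, where no member peak lay, and were not worked out outside such bins.

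Another 139 genes of the same pathways, from a list made with earlier results known, had a wild-type peak at 31 (22.3%, even spread 29.7 genes) and a knockout peak at 49 (35.3%, even spread 41.4 genes), against 18.8% and 30.5% of all protein-coding genes. They held 33 and 60 peaks, against 35.1 and 52.3 for an even spread. The highest of them, at Wls, was above every peak of the 60 genes. Beside Wls, which codes for the carrier that takes Wnt ligands to the cell surface, a site had a fold of 45.3 in wild-type and 45.8 in the knockout. Ror2, a Wnt5a receptor gene, had 37.7 and 34.2. Adam10, the protease that cuts Notch, had 29.5 and 37.6, and Fgf21, a hormone-like FGF gene, 27.4 and 31.5. Bmp5, a ligand gene, had 19.2 and 16.4, and Ltbp3, which codes for a latent TGF-beta binding protein, 14.4 and 21.2. Pdgfrl, a PDGF receptor-like gene, had a knockout peak of fold 6.84. Each of these genes but Pdgfrl had its highest peak in both genotypes.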

How the data were processed

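Members and gene lists were chosen with earlier results of these data known. Per the labels and the study's methods, the authors aligned reads to GRCm38.p6 (M21) with Bowtie, dropped duplicate reads (SAMtools) and ran the MACS2 peak caller at q below 0.05. The control of the call was not given in the sources used here. The deposited peak lists hold a score, the fold (a ratio), −log10 p- and q-values and, as another value, the summit offset. Another deposited list, wild-type over knockout, equals the wild-type list in all 5455 entries and was used as an alternative. The wild-type list holds 5455 peaks (4977 on chromosomes) and the knockout list 7479 (7018), all chromosomal ones used. Shares of all peaks that overlapped a peak or lay in dense bins are over the whole lists. Those for motifs, masked bases and copies are over the chromosomal peaks. Library totals are not known here. Summit fragments were computed as fold times (expected + 1) minus 1, and came out whole within 9e-06. The expected number was the same for all peaks of a list, so fold follows from the fragment count and holds no local background. Intervals are exact Poisson or exact binomial (Clopper-Pearson), 95%. The even spread is a calculation per chromosome, with no p-value. Copies count each 31-base word of the 201 bp window, both strands. Named were all members, with statistics for the highest peak per pathway, peaks within 10 kb of a start and genes called in 1 genotype. Scripts used Python 3.11.15, numpy 2.4.6, pandas 2.3.3 and scipy 1.17.1, and were tested on simulated data. Single-cell samples of the series were not used here. The sequences of some peaks are not reported here.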

Additional observations from a re-analysis of the deposited data

How the results depend on the processing

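With windows of 10 kb, 11 members had a wild-type peak and 0 had a wild-type peak alone, with 16 wild-type and 25 knockout peaks. With gene bodies alone, 10 had a wild-type and 14 a knockout peak, 0 a wild-type peak alone, with 15 and 22 peaks. With 100 kb windows 4 had a wild-type peak alone, and with peaks of a median of 1 copy, 1. The other 71 of 82 values under the alternatives moved by at most 1.5 times. Among these, q below 0.01 and leaving out dense bins removed no member peak, and the wild-type over knockout list is the wild-type list itself, so these settings could not move a count and say nothing about stability. For peaks per gene, 83 of 484 values moved by more, mostly with a 10 kb window or the gene body alone. At 10 kb Bmpr1b, Smad1, Fgf1, Fgfr1, Smad3, Tcf7l1, Wnt2, Bmp4, Notch4 and Pdgfb had 0 peaks. With RefSeq bodies, chosen after seeing the data, 20 and 25 members had a peak, with 24 and 36 peaks. Without Fgfr2, also chosen then, it was 20 and 24, with 24 and 35. The smaller windows by construction hold fewer peaks. No paired analysis was possible because each genotype has 1 ChIP sample. The lists hold no summit of fewer than 5 fragments. A site missing from a list may hold fewer, and its count is not known.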
